A study of Homo sapiens with 6 samples.

Results

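The aminoacyl-tRNA synthetases are the enzymes that attach each amino acid to its own tRNA. The members described here are the genes of the human synthetases and of the proteins that hold the multisynthetase complex together, chosen by name, by a rule that uses no measured value but was set with earlier results of these data known: 20 genes for synthetases of the cytosol, 16 for synthetases of mitochondria and 3 for scaffold proteins, or 39 of the 57781 rows of the count table. RNA was sequenced from A549, an established human line of lung adenocarcinoma, to compare cells with METTL3 knocked down (shMETTL3, 3 libraries) with cells that received the vector alone and are labelled wild type (vector, 3 libraries). METTL3 is the catalytic subunit of the enzyme that writes N6-methyladenosine (m6A) into RNA. The knockdown rested on short hairpin RNA expressed from a plasmid, and its 3 libraries are headed sh1, sh2 and sh3 in the count table, without a statement of whether they share a hairpin. The methods state in general terms that experiments were repeated independently, but neither they nor the labels say of these libraries that they came from separate cultures, so the p-values measure the spread between these libraries only, which may be technical.

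Library totals lay between 14931426 and 19108928 counts. Values are in CPM, the counts of a gene per 1000000 counts of its library, in which each library size was scaled by the trimmed mean of M-values method (TMM), and n = 3 libraries per group with the SD after each mean. The call rule was an adjusted p (Benjamini-Hochberg) under 0.05 in edgeR's quasi-likelihood test over the 15125 genes with enough counts, and 37 of the 39 members were among them. The calls were common: 66.6% of all tested genes were called, 33.7% higher and 32.9% lower in shMETTL3, with a median log2 fold change of 0.002. When libraries were scaled by their size alone, 65.8% of the calls were higher, against 50.6% with TMM, and the median over all genes became 0.18, so the direction of small changes depends on the scaling. METTL3 itself was at 49.8 ± 0.674 CPM in vector and 19.3 ± 0.525 CPM in shMETTL3 (log2 fold change -1.36, adjusted p = 4.57e-16 from edgeR's test). Of the 6 epithelial markers, 5 were lower and 1 (KRT7) higher in shMETTL3, and their sum was 9959 to 10620 CPM in vector and 5145 to 5593 CPM in shMETTL3. Summed leukocyte markers were 0.299 to 0.980 CPM in vector and 5.83 to 6.73 CPM in shMETTL3, nearly all from CD14, while CD3E was listed at 0 in every library and PTPRC stayed near 0. Summed fibroblast markers (mainly COL1A1) were 6.34 to 9.37 CPM in vector and 13.5 to 14.1 CPM in shMETTL3, summed endothelial markers (CDH5, with VWF at 0) were at most 0.122 and 1.89 CPM, and summed hemoglobin genes at most 1.59 and 0.299 CPM. Their part in the results was not tested, and in bulk RNA fewer cells of a type and less RNA per cell cannot be told apart.

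Each synthetase reads an amino acid and the matching tRNA and joins them at the cost of ATP, so protein synthesis in the cytosol and in mitochondria depends on a full set of them. Mitochondria use a set of their own, also encoded in the nucleus, except that GARS and KARS each make an enzyme for both places and that mitochondria have no glutamine enzyme of their own. There EARS2 loads the tRNA for glutamine with glutamate, which an amidotransferase with the subunits QRSL1 and GATC converts, so QARS has no mitochondrial partner. In animal cells 8 synthetase genes and the scaffold proteins AIMP1, AIMP2 and EEF1E1 form the multisynthetase complex. The enzymes fall into class I and class II, which differ in the fold of the catalytic domain. When amino acids run short, the transcription factor ATF4 binds a composite element related to TGATGNAA in many genes of amino acid supply, several cytosolic synthetases among them.

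The promoters were read for that element because it is the best known shared control of these genes. Promoters here are the 250 bases before and 50 bases after each start site in RefSeq (GRCh38.p14), and TGATGNAA, in which N is any base, was searched on both strands. It was present in 6 of the 16 cytosolic members with an entry, in 1 of 14 mitochondrial members (YARS2) and in 0 of 3 scaffold genes, against 3.67% of all 27305 promoters. DARS, LARS, VARS, YARS, AARS2 and VARS2 had no entry. All 6 cytosolic matches were the same 8 letters, TTGCATCA on one strand and TGATGCAA on the other, which are given in capitals within 30 bases of each promoter, written 5′ to 3′ on the strand of the gene.
AARS: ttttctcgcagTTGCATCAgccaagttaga
CARS: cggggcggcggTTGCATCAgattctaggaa
IARS: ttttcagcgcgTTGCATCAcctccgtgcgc
MARS: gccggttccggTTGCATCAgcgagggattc
NARS: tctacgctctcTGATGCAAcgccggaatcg
TARS: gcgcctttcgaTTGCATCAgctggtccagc
These lie at chr16:70289675-70289704 (minus strand), chr11:3057407-3057436 (minus), chr9:92293692-92293721 (minus), chr12:57488053-57488082 (plus), chr18:57621804-57621833 (minus) and chr5:33440956-33440985 (plus), in that order. In CARS, IARS, MARS, NARS and TARS the match was centred within 18 bases of the start site, and in AARS it lay 183 bases before it. The E-box CACGTG was found in IARS and in the mitochondrial members CARS2, EARS2 and MARS2 (7.43% of all promoters), and GCATGCGC, the core of the NRF1 motif, in MARS2 and YARS2 (3.27% of all promoters). A match of letters is no evidence that a factor binds.

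Of the 6 genes with the shared 8 letters, 2 were higher, 2 lower and 2 not called, which is close to the split of all tested genes (33.7% higher and 32.9% lower). CARS and TARS rose (log2 fold changes 0.56 and 0.38), AARS and IARS fell (-0.46 and -0.27), and MARS (0.04) and NARS (0.05) were not called.

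Among the 19 cytosolic members tested, 3 were higher and 7 lower in shMETTL3 and 9 were not called. That is 15.8% higher against 33.7% of all tested genes, and 36.8% lower against 32.9%. The changes were small, since 2 of the 19 members (10.5%) were called with an absolute log2 fold change of at least 0.5, against 39.1% of all tested genes. The log2 fold changes ran from -0.71 in QARS to 0.56 in CARS, with a median of 0.03, which turned to -0.11 with offsets for GC content and transcript length. These offsets also moved the median of all tested genes to -0.06, and relative to it the cytosolic median was 0.03 with TMM alone and -0.05 with the offsets. The CPM of the groups did not overlap in 12 of the 19 members (63.2%), against 69.4% of all tested genes. With scaling by library size alone, 10 cytosolic members were called higher and 4 lower, while 6750 of the 15125 tested genes were called higher and 3509 lower. The summed level was 3166 to 3220 CPM in the vector libraries and 2906 to 2924 CPM in the shMETTL3 libraries, while the share of raw counts was 0.293% to 0.307% and 0.307% to 0.311%.

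**Figure D1:**
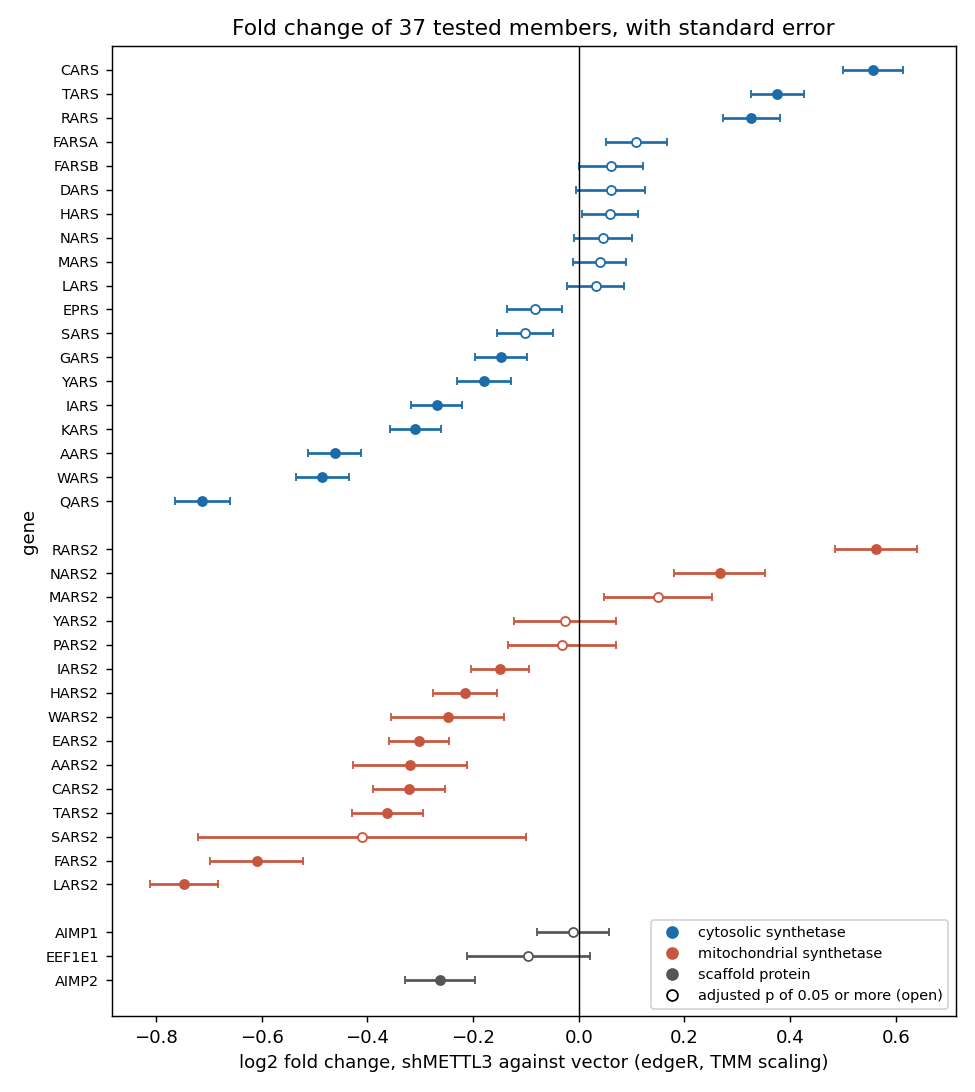
The log2 fold change of shMETTL3 against vector is plotted for each of the 37 tested members, with bars for the standard error and open points for members not called, by cytosolic, mitochondrial and scaffold group. QARS (-0.71) and LARS2 (-0.75) lie farthest to the left and CARS and RARS2 (both 0.56) farthest to the right, and most cytosolic members lie close to 0.

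The 3 cytosolic rises were in CARS, TARS and RARS, which charge tRNAs with cysteine, threonine and arginine. CARS was at 62.3, 57.6 and 58.5 CPM in the vector libraries and 88.1, 83.6 and 91.2 CPM in the shMETTL3 libraries, a log2 fold change of 0.56 (SE 0.0567, adjusted p = 1.77e-09 from edgeR's test). TARS was at 175, 170 and 169 CPM in vector and 232, 214 and 221 CPM in shMETTL3 (log2 fold change 0.38, SE 0.0504, adjusted p = 2.46e-07). All 3 shMETTL3 libraries were above all vector libraries in both genes, which reached 147% and 130% of the vector mean. RARS, a member of the multisynthetase complex, was at 165, 153 and 144 CPM in vector and 189, 190 and 200 CPM in shMETTL3 (log2 fold change 0.33, SE 0.0543, adjusted p = 7.04e-06), again without overlap. These 3 calls and directions were kept under each of the 16 other fits that were run. CARS lies on the minus strand at chr11:3022152-3078843 of GRCh37.

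QARS, the glutamine enzyme and another member of the complex, had the largest fall of the cytosolic set. It was at 292, 294 and 302 CPM in vector and 172, 191 and 178 CPM in shMETTL3 (log2 fold change -0.71, SE 0.0513, adjusted p = 1.71e-12 from edgeR's test). The shMETTL3 libraries held 61.0% of the vector level, and 13.1% of all tested genes had a lower log2 fold change. QARS lies on the minus strand at chr3:49133365-49142563 of GRCh37, and none of its exons overlap those of another gene. The alanine enzyme AARS was at 330, 325 and 350 CPM in vector and 236, 250 and 244 CPM in shMETTL3 (log2 fold change -0.46, SE 0.0501, adjusted p = 5.95e-09). WARS, the tryptophan enzyme, which interferon induces in many cells, was at 153, 156 and 154 CPM in vector and 106, 111 and 113 CPM in shMETTL3 (log2 fold change -0.48, SE 0.0508, adjusted p = 3.02e-09). In all 3 genes the groups were far apart, with gaps between them wider than the range within either group.

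KARS, the lysine enzyme of both compartments, was at 285, 289 and 284 CPM in vector and 225, 229 and 240 CPM in shMETTL3 (log2 fold change -0.31, SE 0.0488, adjusted p = 3.38e-06). IARS, the isoleucine enzyme of the cytosol, was at 313, 298 and 296 CPM in vector and 255, 253 and 245 CPM in shMETTL3 (log2 fold change -0.27, SE 0.0489, adjusted p = 2.47e-05). Neither gene's groups overlapped, and the remaining levels were 80.7% and 83.0% of the vector mean. The tyrosine enzyme YARS (-0.18, adjusted p = 0.00284) and the glycine enzyme GARS (-0.15, adjusted p = 0.00982) had the smallest called falls. Scaling by library size alone ended the calls of IARS, YARS and GARS and turned the log2 fold change of GARS to 0.03, whereas the calls of QARS, AARS, WARS and KARS were kept under each of the 16 other fits.

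The other 9 tested members of the cytosolic set were not called, with log2 fold changes from -0.10 in SARS, the serine enzyme, to 0.11 in FARSA. FARSA and FARSB encode the catalytic and the other subunit of the phenylalanine enzyme. FARSA was at 67.3, 66.9 and 73.5 CPM in vector and 70.6, 76.3 and 77.0 CPM in shMETTL3 (log2 fold change 0.11, SE 0.0579, adjusted p = 0.0991). FARSB was at 63.8, 56.4 and 55.9 CPM in vector and 59.8, 61.9 and 62.3 CPM in shMETTL3 (log2 fold change 0.06, SE 0.0606, adjusted p = 0.377). The groups overlapped in both subunits, and in 5 of the 16 other fits FARSA was called higher. The log2 fold changes of the remaining members were -0.08 in EPRS, which charges tRNAs with glutamate and proline from 1 long protein, 0.03 in LARS (leucine), 0.04 in MARS (methionine), 0.05 in NARS (asparagine), 0.06 in DARS (aspartate) and 0.06 in HARS (histidine), which is described with HARS2 below. In SARS the groups did not overlap (98.2 to 103 CPM in vector and 90.4 to 97.2 CPM in shMETTL3), but its adjusted p was 0.0900, and with scaling by library size alone its log2 fold change was 0.07. EPRS was called lower in 3 of the 16 other fits, and with scaling by library size alone its log2 fold change was 0.09.

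VARS and VARS2, the valine enzymes of the cytosol and of mitochondria, were the members not tested. The counts of VARS were 1, 1 and 72 in vector and 1, 0 and 0 in shMETTL3, and those of VARS2 were 1, 0 and 1 and then 0, 2 and 1. Valine charging is needed by every cell, and both genes lie on chromosome 6 of GRCh37 (VARS at chr6:31745295-31763529 on the minus strand, VARS2 at chr6:30881982-30894236 on the plus strand). Of the 20 protein-coding genes nearest to each, 19 around VARS and 18 around VARS2 also had at most 3 counts in every library. These rows therefore give no level for either gene, and EEF1G, a subunit of elongation factor 1, was likewise listed at 0 in every library.

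**Figure D2:**
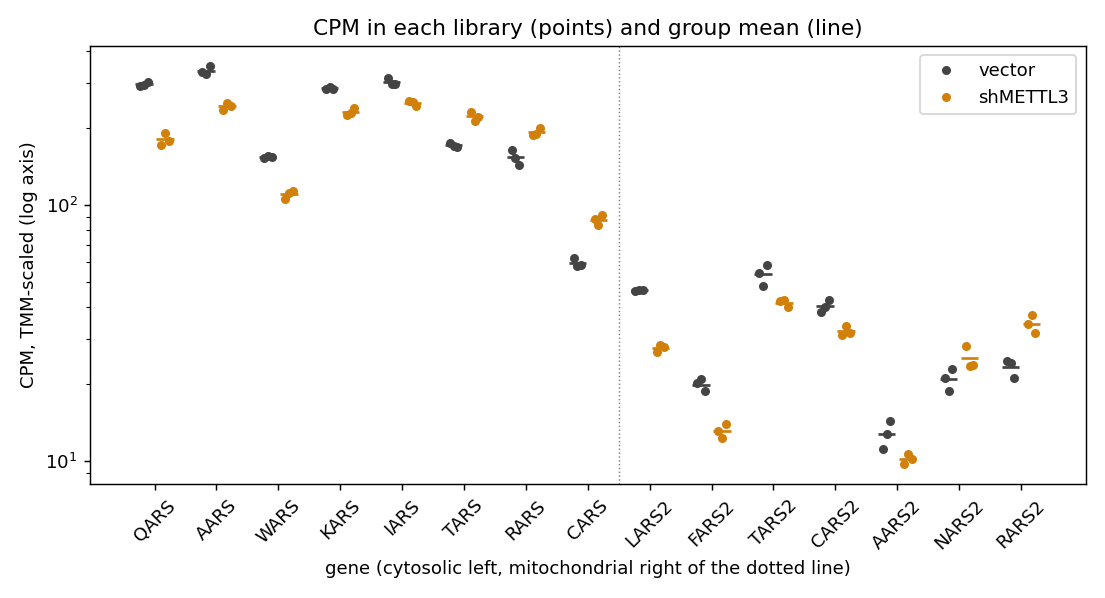
CPM on a log axis in each of the 3 vector and 3 shMETTL3 libraries are shown as points, with a line at the group mean, for the called members given library by library in the text. QARS, LARS2 and FARS2 show separate groups with vector on top, CARS and RARS2 show shMETTL3 on top, and in AARS2 and NARS2 the groups come close to each other.

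Of the 15 mitochondrial synthetases tested, 2 were higher and 9 lower in shMETTL3 and 4 were not called. That is 13.3% higher against 33.7% of all tested genes, and 60.0% lower against 32.9%. With scaling by library size alone, 3 were called higher and 4 lower, while 6750 of the 15125 tested genes were called higher and 3509 lower. The median log2 fold change was -0.25, and its distance from the median of all tested genes lay between -0.31 and -0.21 in the main fit and under each of the 16 alternatives. The log2 fold changes ran from -0.75 in LARS2 to 0.56 in RARS2, and 3 of the 15 members were called with an absolute value of at least 0.5, against 39.1% of all tested genes. The summed level was 651 to 670 CPM in vector and 576 to 581 CPM in shMETTL3. The summed share of raw counts was 0.0599% to 0.0637% in vector and 0.0606% to 0.0623% in shMETTL3, so that the groups overlapped before scaling.

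LARS2, the leucine enzyme of mitochondria, had the largest fall of all members. It was at 46.2, 46.5 and 46.5 CPM in vector and 26.7, 28.3 and 27.9 CPM in shMETTL3 (log2 fold change -0.75, SE 0.0643, adjusted p = 6.54e-11 from edgeR's test). The shMETTL3 libraries held 59.6% of the vector level, whereas the cytosolic leucine enzyme LARS was at 116 ± 6.67 CPM in vector and 118 ± 1.505 CPM in shMETTL3. LARS2 lies on the plus strand at chr3:45430053-45596218 of GRCh37. FARS2, which charges mitochondrial tRNA with phenylalanine as a single chain, was at 20.1, 20.9 and 18.7 CPM in vector and 13.1, 12.3 and 13.9 CPM in shMETTL3 (log2 fold change -0.61, SE 0.0878, adjusted p = 8.21e-07). Both genes had groups that did not overlap and kept their calls under each of the 16 other fits.

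TARS2, the mitochondrial threonine enzyme, was at 54.1, 48.4 and 58.2 CPM in vector and 42.3, 42.6 and 39.9 CPM in shMETTL3 (log2 fold change -0.36, SE 0.0670, adjusted p = 3.11e-05 from edgeR's test). CARS2, the cysteine enzyme, was at 38.2, 40.0 and 42.7 CPM in vector and 31.1, 33.7 and 31.8 CPM in shMETTL3 (log2 fold change -0.32, SE 0.0674, adjusted p = 0.000147). The lowest vector library was above the highest shMETTL3 library in both genes, the opposite order to that of their cytosolic counterparts TARS and CARS. AARS2, the alanine enzyme, was at 11.1, 12.8 and 14.3 CPM in vector and 9.72, 10.7 and 10.2 CPM in shMETTL3 (log2 fold change -0.32, SE 0.108, adjusted p = 0.0111). Its groups came close to each other, and without vector replicate 3 the adjusted p of AARS2 was 0.0686.

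The smaller called falls were in EARS2 (glutamate, -0.30, adjusted p = 3.59e-05), WARS2 (tryptophan, -0.25, adjusted p = 0.0425), HARS2 (histidine, -0.21, adjusted p = 0.00278) and IARS2 (isoleucine, -0.15, adjusted p = 0.0175). In WARS2 the groups overlapped, and its call was lost in 10 of the 16 other fits, DESeq2 (adjusted p = 0.0902) among them. Scaling by library size alone ended the calls of AARS2, CARS2, HARS2 and WARS2, and it turned the log2 fold change of IARS2 to 0.03. The adjusted p of IARS2 was 0.11 without vector replicate 2, 0.061 without shMETTL3 replicate 2 and 0.0532 without shMETTL3 replicate 3.

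RARS2 and NARS2, the arginine and asparagine enzymes of mitochondria, were the 2 that rose. RARS2 was at 24.6, 24.1 and 21.1 CPM in vector and 34.3, 37.1 and 31.6 CPM in shMETTL3 (log2 fold change 0.56, SE 0.0777, adjusted p = 4.09e-07 from edgeR's test), with no overlap and 147% of the vector level. NARS2 was at 21.2, 18.8 and 22.8 CPM in vector and 28.1, 23.6 and 23.8 CPM in shMETTL3 (log2 fold change 0.27, SE 0.0859, adjusted p = 0.00794). The gap between the groups of NARS2 was narrow, and its adjusted p was 0.0733 without vector replicate 2, 0.0981 without shMETTL3 replicate 1 and 0.0575 under offsets for length and GC content. The 4 members not called were MARS2 (methionine, 0.15), PARS2 (proline, -0.03), YARS2 (tyrosine, -0.03) and SARS2 (serine). SARS2 had 19, 21 and 25 counts in vector and 24, 15 and 14 in shMETTL3, too few for a precise value (log2 fold change -0.41, SE 0.311, adjusted p = 0.246).

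The transcripts of the cytosolic and the mitochondrial synthetase for the same amino acid were compared within each library by the log2 ratio of the counts of the 2 genes, in which scaling between libraries cancels. The gene pair for cysteine had the largest difference, with a log2 ratio of CARS to CARS2 of 0.56 ± 0.129 in vector and 1.44 ± 0.117 in shMETTL3. The ratio of LARS to LARS2 was 1.32 ± 0.087 in vector and 0.78 higher in shMETTL3. Threonine (0.74) and both subunits of the phenylalanine enzyme against FARS2 (0.71 for FARSA and 0.67 for FARSB) had differences of like size. Leaving out any 1 library kept these differences between 0.61 and 0.95. Of the 16 gene pairs with both members tested, 11 had groups that did not overlap, 7 with a higher and 4 with a lower ratio in shMETTL3, and the median difference was 0.08. Among single genes, 69.4% of all tested had CPM that did not overlap, and 11 of 16 pairs is a share near it.

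With 66.6% of all tested genes called, pairs with both members called are common. The pairs for cysteine and threonine had both members called in opposite directions. In 4 pairs both members were called in the same direction, lower for alanine, isoleucine and tryptophan and higher for arginine. The ratio was lower in shMETTL3 without overlap for tryptophan (-0.25), arginine (-0.23), alanine (-0.15) and methionine (-0.11), and in the pairs for arginine and methionine the groups nearly touched. EPRS against PARS2 was the pair whose difference (-0.05) changed sign on leaving out a library, between -0.14 and 0.06. These ratios are a description with no test.

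**Figure D3:**
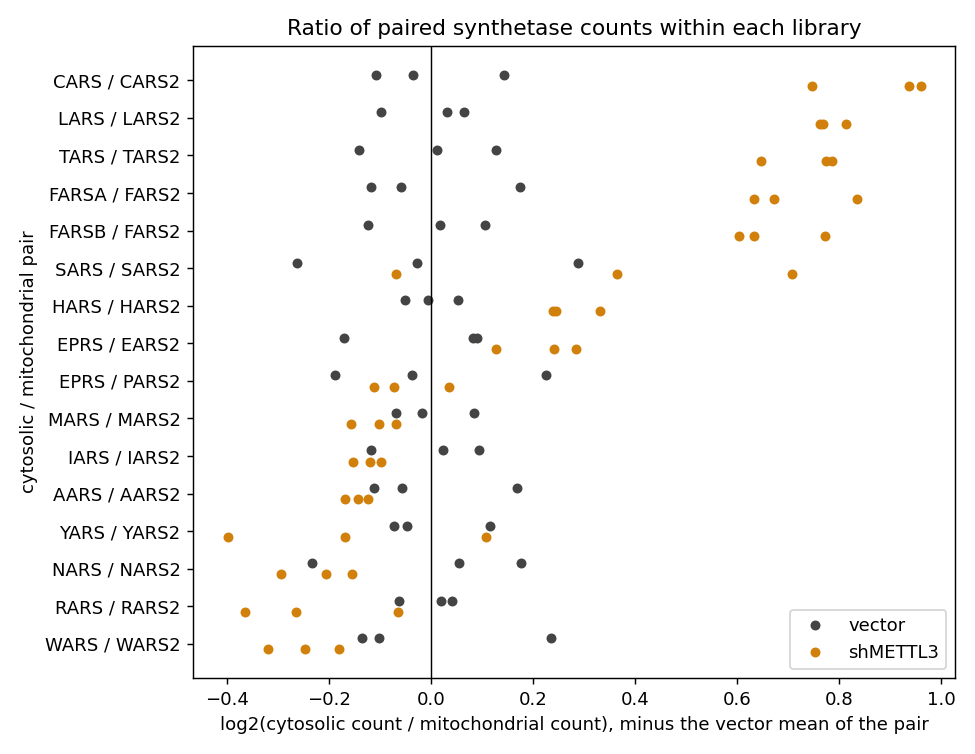
The log2 ratio of the counts of the cytosolic gene to those of the mitochondrial gene for the same amino acid is drawn for each library of both groups, in 16 pairs, as the distance from the mean of the vector libraries. The shMETTL3 points lie to the right of the vector points for cysteine, leucine, threonine and phenylalanine and to the left for tryptophan and arginine.

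HARS and HARS2 lie head to head on chromosome 5 of GRCh37 (HARS at chr5:140052620-140071122 on the minus strand, HARS2 at chr5:140071015-140078890 on the plus strand) and share 108 exon bases. HARS was at 69.2, 69.5 and 71.6 CPM in vector and 72.8, 73.6 and 72.6 CPM in shMETTL3 (log2 fold change 0.06, SE 0.0535, adjusted p = 0.336 from edgeR's test). HARS2 was at 50.5, 49.1 and 48.6 CPM in vector and 43.3, 41.2 and 43.3 CPM in shMETTL3 (log2 fold change -0.21, SE 0.0603, adjusted p = 0.00278). HARS2 was thus called lower and HARS was not called, and the log2 ratio of HARS to HARS2 differed by 0.27 between the groups, without overlap. How the counting treated strand is not given in the sources used here, so reads from the shared bases cannot be told apart, nor can those of 1090 exon bases that HARS shares with WDR55. In all, 12 members share exon bases with a protein-coding gene on the opposite strand, among them MARS with DDIT3 (355 bases), KARS with TERF2IP (176 bases), WARS with WDR25 (287 bases) and CARS2 with ING1 (334 bases).

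Summed over the members of each set, the cytosolic counts were 4.89, 4.73 and 4.88 times the mitochondrial counts in the vector libraries and 5.00, 5.07 and 5.04 times in the shMETTL3 libraries. The shMETTL3 libraries were all above the vector libraries, with means of 4.83 ± 0.0909 and 5.04 ± 0.0364. IARS2 alone gave 35.3% to 40.1% of the mitochondrial counts. Without it, a choice made after the data were seen, the ratios were 7.98, 7.89 and 7.55 in vector and 8.26, 8.32 and 8.29 in shMETTL3, again without overlap.

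The synthetases of the multisynthetase complex were described beside those outside it. Of the 8 complex members, 1 was higher (RARS) and 3 were lower (QARS, KARS and IARS), with a median of -0.03. Of the 11 tested members outside it, 2 were higher and 4 lower, with a median of 0.05. The shares called lower, 37.5% and 36.4%, lay near the 32.9% of all tested genes, and the shares called higher, 12.5% and 18.2%, below the 33.7%. The summed counts of the complex members divided by those of the others were 0.997, 0.995 and 0.955 in vector and 0.913, 0.924 and 0.919 in shMETTL3. Without QARS, left out after the data were seen, the ratios were 0.817, 0.809 and 0.769 in vector and 0.799, 0.798 and 0.801 in shMETTL3, and the groups overlapped. By class, without EPRS, which joins enzymes of both classes, and beside the same shares of all tested genes (33.7% higher and 32.9% lower), 2 of 8 cytosolic class I members were higher and 4 lower (median -0.07), and 1 of 10 class II members was higher and 3 lower (median 0.05). In mitochondria 1 of 8 class I members was higher and 5 lower (median -0.20), and 1 of 7 class II members was higher and 4 lower (median -0.32).

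Among the scaffold proteins, AIMP2, which links the subcomplexes, was at 44.96, 48.2 and 52.5 CPM in vector and 42.5, 39.4 and 39.4 CPM in shMETTL3 (log2 fold change -0.26, SE 0.0666, adjusted p = 0.00113 from edgeR's test). AIMP1, whose cleaved form acts as a cytokine, was at 56.4, 63.2 and 49.9 CPM in vector and 56.4, 57.0 and 54.7 CPM in shMETTL3 (log2 fold change -0.01, SE 0.0680, adjusted p = 0.893). EEF1E1, also called AIMP3, was at 9.96, 11.4 and 9.37 CPM in vector and 10.6, 8.47 and 9.75 CPM in shMETTL3 (log2 fold change -0.10, SE 0.116, adjusted p = 0.480). AIMP2 fell without overlap, and the groups of AIMP1 and EEF1E1 overlapped. With scaling by library size alone AIMP2 was not called. Exons of AIMP2 share 532 bases with EIF2AK1 and those of AIMP1 476 bases with TBCK, on opposite strands.

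Levels can be compared between genes only per length, for which the CPM were divided by the length of the canonical transcript in kilobases. In the vector libraries KARS (144 ± 1.08 CPM per kilobase), QARS (121 ± 2.33), AARS (97.5 ± 3.82) and GARS (95.0 ± 2.58) had the highest levels per length of the cytosolic set. AARS and GARS did not differ beyond their spread. KARS and GARS are the genes that serve both compartments. The lowest was FARSB (8.68 CPM per kilobase), whose canonical transcript has 6761 bases against 1811 in FARSA (38.2 CPM per kilobase), so that this order depends on which transcript is used.

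The mitochondrial set was lower, with a median of 10.4 CPM per kilobase in vector and 10.0 in shMETTL3, against 63.0 and 56.0 in the cytosolic set. IARS2 (71.2 ± 5.53 CPM per kilobase in vector) stood apart from the other mitochondrial members, the next being CARS2 (21.9). SARS2 had the lowest level per length (0.666), and its exons share 1492 bases with another annotated gene on the same strand. The scaffold genes AIMP2, AIMP1 and EEF1E1 were at 40.5, 20.4 and 9.77 CPM per kilobase in vector.

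**Figure D4:**
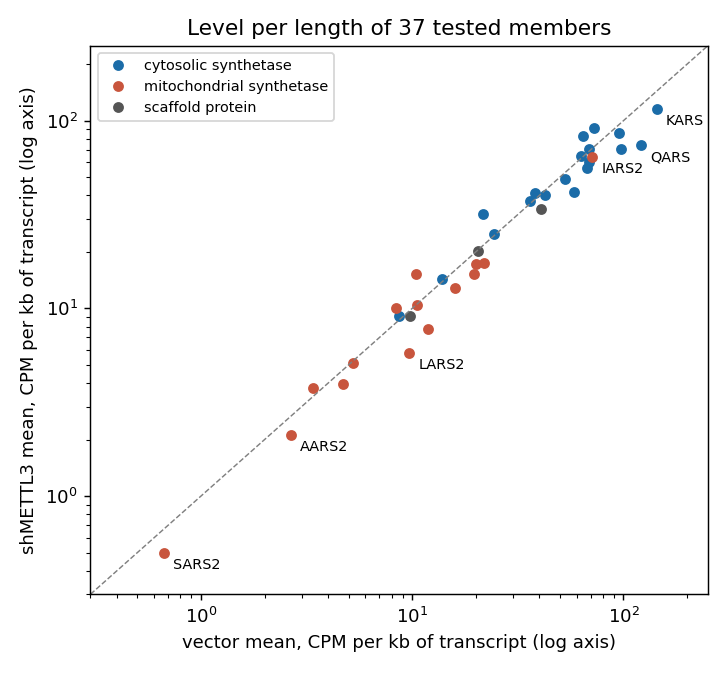
The mean level in shMETTL3 is plotted against that in vector, both in CPM per kilobase of the canonical transcript on log axes, for the 37 tested members, with a diagonal line of equal levels. The cytosolic members lie mostly above the mitochondrial ones, and IARS2 lies among the cytosolic members.

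The genes around a member on the chromosome were read for shifts that cover a whole region, as a description. The median log2 fold change of the 20 tested genes nearest to QARS was -0.16, to LARS2 -0.13 and to FARS2 -0.30, against -0.71, -0.75 and -0.61 in the members themselves. Around CARS the median was 0.26, around RARS 0.23, around TARS 0.14 and around RARS2 0.01. IARS, which fell, had neighbours with a median of 0.42. The neighbours of AARS (-0.02), WARS (0.04) and KARS (0.02) had medians near 0.

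Genes that act beside the synthetases were counted from lists chosen by function. Of 30 tested genes of the amino acid response, 11 were higher and 15 lower in shMETTL3, or 36.7% and 50% against 33.7% and 32.9% of all tested genes, with a median of -0.14 and a range from -1.60 in CTH, an enzyme of cysteine synthesis, to 2.32 in CHAC1, which degrades glutathione. ATF4 itself was at 435 ± 11.0 CPM in vector and 466 ± 4.70 CPM in shMETTL3 (log2 fold change 0.10, adjusted p = 0.0683 from edgeR's test) and was not called. The transcription factors ATF5 (1.57), CEBPG (0.57) and DDIT3 (0.49) rose and the transcription factors ATF3 (-1.34) and CEBPB (-0.54) fell. Among the metabolic genes, ASNS (-0.59), the asparagine synthetase, PSAT1 (-0.52) of serine synthesis, and SHMT2 (-0.63) and MTHFD2 (-0.76) of mitochondrial folate metabolism fell. ALDH1L2, also of mitochondrial folate metabolism, rose (0.53), and PHGDH, the first enzyme of serine synthesis, was not called (-0.15). TGATGNAA was in the promoters of 5 of the 26 response genes with an entry. Of these, CHAC1 rose, and ASNS, ATF3, SLC7A1 (-0.28) and SLC3A2 (-0.13) fell.

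The elongation factors of the cytosol fell in 5 of the 6 genes tested, or 83.3% against 32.9% of all tested genes, with a median of -0.53. EEF2, the translocation factor, had a log2 fold change of -0.90, EEF1B2 -0.82, EEF1D -0.57, EIF5A -0.49 and EEF1A1 -0.47, whereas EEF1A2, the form typical of muscle and neurons, rose (0.34). EEF1A1 has near-identical copies in the genome, so its value is uncertain. Of the 13 tested mitochondrial translation factors, 4 were lower and 1 higher, with a median of 0.03. The share called lower, 30.8%, lay near the 32.9% of all tested genes, and the share called higher was 7.69% against 33.7%. TUFM, which brings charged tRNA to the mitochondrial ribosome, had the largest fall of these (-0.65), and MTRF1, of the release factor family, was the 1 that rose (0.71).

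Of 22 tested genes for tRNA maturation and export, 11 were higher and 4 lower, or 50% and 18.2% against 33.7% and 32.9% of all tested genes, with a median of 0.15. The falls were in TSEN54 (-1.17) and TSEN34 (-0.37), subunits of the endonuclease that removes introns from tRNA, and in POP1 (-1.06) and POP5 (-0.59), subunits of RNase P. XPOT, the exporter of tRNA from the nucleus, was at -0.02 and not called. Charging of tRNA and protein levels were not measured in these libraries.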

How the data were processed

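The authors deposited raw counts of reads per gene and library, not normalized, for 57781 symbols. The submitters' processing notes name cutadapt 3.0, HISAT2 2.2.1, SAMtools 1.13, HTSeq 0.13.5 and DESeq2 with hg19, and the study's methods name other versions of HISAT2 and htseq. The annotation and the strand setting are not given in the sources used here. Conditions and replicate numbers came from the sample titles, and no sample column was left unused.

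Counts were tested in R 4.3.3 with edgeR 4.0.16 (TMM, filterByExpr, glmQLFit and glmQLFTest on the group) and Benjamini-Hochberg adjustment over 15125 genes. Library totals were 14931426 to 19108928, which limits the precision of members with few counts. Chi-square per degree of freedom was 2.79 to 7.56 within groups and 80.4 to 99.9 across them. The script was tested on simulated counts. Lengths, GC content, positions and exon overlaps came from GENCODE for GRCh37, with 38087 rows matched by current and 856 by older symbol. Motifs were searched in RefSeq promoters.

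The members and lists were chosen with earlier results of these data known. All 39 members are named. Values in every library are given for the scaffold proteins, up to 5 largest called rises and falls each of cytosolic and mitochondrial members, FARSA, FARSB, HARS and HARS2. Genes of other lists were picked as examples after their values were seen. The alternatives were other scalings, filters and call rules, DESeq2 1.42.0, limma-voom (limma 3.58.1), a replicate block, offsets for GC content and length, and leaving out each library.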

Additional observations from a re-analysis of the deposited data

How the results depend on the processing

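Of the 22 called members, 12 kept their call and direction under each of the 16 other fits: AARS, CARS, KARS, QARS, RARS, TARS, WARS, EARS2, FARS2, LARS2, RARS2 and TARS2. With libraries scaled by size alone, the median over all tested genes went from 0.002 to 0.176. Of these 15125 genes, 6750 were then called higher and 3509 lower. This scaling gave 10 cytosolic members higher and 4 lower, 4 mitochondrial members lower and 0 scaffold proteins lower, with medians of 0.206, -0.075 and 0.079, and it turned EPRS to 0.091, GARS to 0.028, SARS to 0.073, IARS2 to 0.025, PARS2 to 0.143, YARS2 to 0.15, AIMP1 to 0.162 and EEF1E1 to 0.079. Relative to the median of all genes, the mitochondrial median was -0.251 there and -0.25 with TMM. Upper-quartile scaling gave a cytosolic median of 0.055 and AIMP1 at 0.012. Without a filter, which lets VARS in, the cytosolic median was -0.038, and with at least 10 counts in every library AIMP1 was at 0.006.

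Of the 15 members not called, 1 (SARS2) stayed without a call or a change of sign in every fit. With offsets for GC content and length, 4468 of the 15125 tested genes were called higher and 5725 lower. Offsets for GC content and length gave 4 cytosolic members higher and 10 lower, with EPRS (-0.207), SARS (-0.128), LARS (-0.107) and AIMP1 (-0.195) called lower and FARSA (0.189) higher, 1 mitochondrial member higher and 2 scaffold proteins lower, with medians of -0.107 (cytosolic) and -0.308 (mitochondrial), and turned DARS to -0.105, FARSB to -0.089, LARS to -0.107, MARS to -0.064 and NARS to -0.066; the replicate block with these offsets gave 2 scaffold proteins lower, the same medians and FARSB at -0.088. Calls with an absolute log2 fold change of at least 0.5 numbered 1 cytosolic higher and 1 lower, 1 mitochondrial higher and 2 lower, and 0 scaffold proteins lower. Leaving out each library gave cytosolic medians from -0.02 (without vector replicate 3) to 0.032, and 1 or 2 mitochondrial members higher (1 without vector replicate 2 or shMETTL3 replicate 1). Over these fits DARS ran from -0.005 to 0.092, LARS from -0.02 to 0.057, NARS from -0.01 to 0.079, PARS2 from -0.115 to 0.019, YARS2 from -0.145 to 0.088 and AIMP1 from -0.097 to 0.07, and vector replicate 3 was the library whose absence turned the sign of DARS, LARS, NARS and PARS2. The difference between groups in the ratio of summed cytosolic to mitochondrial counts was 0.207, ran from 0.154 to 0.234 on leaving out a library, and was 0.482 without IARS2. Causes were not tested beyond what each alternative changes.

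With the replicate block, 5 members were higher and 17 lower, as without it (3 and 7 cytosolic, 2 and 9 mitochondrial), and 10111 genes in all were called against 10067. Deviations of samples with the same number correlated at 0.069, -0.024 and 0.039, and those of samples with different numbers at -0.087 to 0.047. With 3 libraries per group these values cannot show whether samples of the same number were prepared together. Few counts limit the values of SARS2, VARS and VARS2.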
